A study of Mus musculus with 18 samples.

Results

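Isoliensinine, a bisbenzylisoquinoline alkaloid from lotus seed, was given on its own to MOVAS cells, an established smooth muscle line from mouse aorta, and poly-A RNA was sequenced. Of the 18 libraries of the study, 6 bear on this comparison: 3 of isoliensinine alone (B_I1, B_I2 and B_I3) and 3 of untreated cells (Blank1, Blank2 and Blank4), chosen by their count columns. The other 12 hold the senescence inducers doxorubicin (Dox) and hydrogen peroxide (H2O2), each without and with isoliensinine (D_I and H_I). The labels give the B_I libraries only as isoliensinine, and they were read as isoliensinine on otherwise untreated cells because the titles run in parallel. The labels used here state neither dose nor time. The design text calls the replicates biological. MOVAS is a single established line, so all groups share its genotype and its adaptation to culture, and no NK cells were among the labelled samples.

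By its title, the series is about natural killer (NK) cells removing smooth muscle cells that have become senescent. Smooth muscle cells of the artery wall contract through actin and myosin isoforms such as Acta2 and Myh11. In culture and in disease they lose part of this program, divide and deposit matrix. NK cells weigh activating ligands on a target, such as the NKG2D ligands Ulbp1 and Raet1, against inhibitory ones such as MHC class I. The comparison of B_I with Blank asks what isoliensinine does to cells that had received neither inducer.

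No gene separated the groups by the test used. With 13375 genes tested by edgeR's quasi-likelihood test, 0 passed an adjusted p of 0.05 after Benjamini-Hochberg correction (percent called 0), and the smallest adjusted p was 0.110. At an unadjusted p under 0.05 there were 640 genes (4.79%), 276 of them higher and 364 lower with isoliensinine. DESeq2 called 1 gene, Zfp607b, a low zinc finger gene at 0.685, 1.29 and 1.35 CPM (read counts scaled to library size by TMM) in Blank and at 0 in all B_I libraries, which was named after its values were seen. The median log2 difference over all genes was -0.01. For 8803 genes (65.8%) the 95% interval of the difference lay within 2-fold either way. The median half-width of that interval was 0.48 on the log2 scale. The interval holds for single genes, whereas a call also had to pass the adjustment over all genes. A difference larger than this half-width could therefore go uncalled. The size of difference that would have been called was not tested.

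The labels' cell type was checked against smooth muscle markers. Acta2, which encodes smooth muscle actin, and Smtn, which encodes smoothelin, were well expressed, the latter at 121 to 199 CPM. Myh11, the smooth muscle myosin heavy chain, lay at 1.80 to 11.3 CPM and Cnn1, calponin, at 1.31 to 6.31 CPM. Tagln and Myocd, among the defining markers of the contractile state, were at or near 0, with at most 0.757 CPM for Tagln and 0.710 CPM for Myocd, and were not tested. Of 12 NK and T lymphocyte markers, Cd3d, Cd3e, Ncr1 and Prf1 were at 0 in all 6 libraries, and the sum of the list was 2.32 to 3.96 CPM.

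Blank4 and B_I3 stood apart from their own groups and lay close to each other. Among 7477 genes with a mean of at least 10 CPM over the 6 libraries, 367 were more than 2-fold apart between Blank4 and the mean of Blank1 and Blank2. Another 179 were that far apart between B_I3 and the mean of B_I1 and B_I2. Between B_I3 and Blank4 there were 19 such genes, between B_I1 and B_I2 22, and between Blank1 and Blank2 3. Across the treatment itself the count was 0 for the means of 3 and 1 for B_I1 and B_I2 against Blank1 and Blank2. Total counts were alike, at 15740815 to 17955971 per library. The TMM scaling factors of Blank4 and B_I3 were lower, at 0.846 and 0.868 beside 0.945 to 0.983 in the rest of the 6. They also had fewer genes with a count, 13370 and 13658 beside 13820 to 14467. The median of 79 cytosolic ribosomal protein genes was 0.50 higher (log2) in Blank4 and 0.43 higher in B_I3 than in the rest of their group. Both libraries that stood apart carried more contractile transcripts, and in bulk RNA more cells of a type and more RNA per cell cannot be told apart. In them the median of 24 contractile genes was 0.58 higher (log2) in Blank4 and 0.40 higher in B_I3 than in the rest of their group. Of 16 colon epithelium markers, 14 were more than 2-fold lower in Blank4 and 12 in B_I3. The summed level of those 16 markers, led by Muc2, ran from 71.0 to 227 CPM in Blank and from 82.3 to 324 CPM in B_I. The labels give no batch for these libraries, and the part of these differences in the results was not tested. The main results are therefore given for all 6 libraries, for B_I1 and B_I2 against Blank1 and Blank2 (the 4 libraries), and for B_I3 against Blank4. A log2 difference or median with no such mention is that of all 6 libraries. The edgeR fits behind the values of the 6 and of the 4 libraries also held the inducer libraries. Their intervals and p-values therefore draw on the spread within the inducer groups as well.

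**Figure D1:**
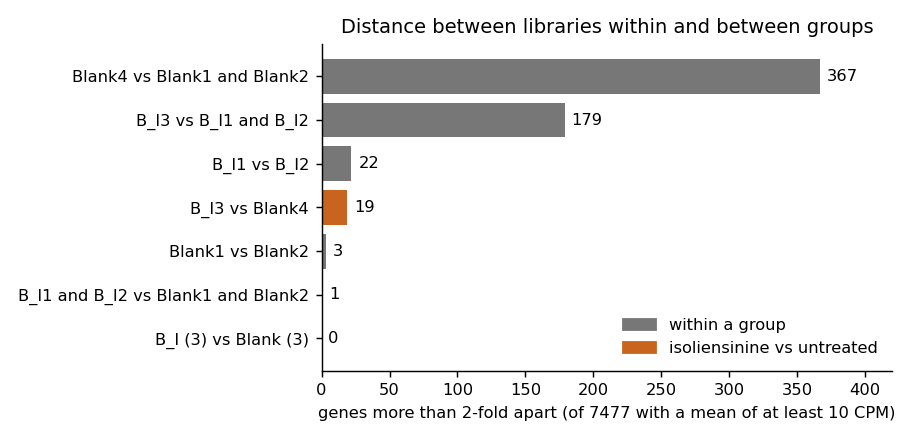
Genes more than 2-fold apart between libraries or means of libraries (horizontal axis, number of genes out of 7477 with a mean of at least 10 CPM). Grey bars compare libraries within a group and orange bars compare isoliensinine with untreated cells; the longest bars, 367 and 179 genes, are Blank4 and B_I3 against the rest of their own groups.

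Without Blank4 and B_I3, 3 of 13734 genes were called (0.0218%) by edgeR at adjusted p under 0.05. The immediate early gene Egr1 and the complement gene C3 fell, and Id3, an inhibitor of helix-loop-helix transcription factors, rose. At an unadjusted p under 0.05, 576 genes were higher (4.19%) and 637 lower (4.64%). Among 1185 genes under that threshold and also tested with all libraries, 636 (53.7%) had the same sign in B_I3 minus Blank4, which uses other libraries. The same share over all genes was 50.2%.

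Egr1 (ENSMUSG00000038418, chromosome 18, 34992876 to 34998037 in the deposited table) encodes a zinc finger factor that is induced within minutes by growth factors and stress. Its levels were 316, 312 and 262 CPM in Blank1, Blank2 and Blank4, and 198, 192 and 260 CPM in B_I1, B_I2 and B_I3. The groups did not overlap, but Blank4 and B_I3 were nearly equal. In the 4 libraries the log2 difference was -0.68 (95% interval -0.90 to -0.47, edgeR adjusted p = 0.00929). In all 6 it was -0.45 (SE 0.119, edgeR adjusted p = 0.917), and in B_I3 minus Blank4 it was -0.01.

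C3 (ENSMUSG00000024164, chromosome 17, 57510970 to 57535136) encodes the central complement protein, which fibroblasts and smooth muscle cells also secrete. It stood at 88.0, 75.9 and 110 CPM in Blank and at 55.9, 42.3 and 80.8 CPM in B_I. B_I3 lay above Blank2, so the groups overlapped, although B_I3 was below Blank4. The log2 difference was -0.73 (SE 0.127, edgeR adjusted p = 0.0285) in the 4 libraries. It was -0.61 (SE 0.169, edgeR adjusted p = 0.917) in all 6, and -0.45 in B_I3 minus Blank4.

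Id3 (ENSMUSG00000007872, chromosome 4, 135870808 to 135873066) is a known target of BMP signalling. Its levels were 72.9, 81.1 and 341 CPM in Blank and 120, 139 and 280 CPM in B_I. Blank4 was the highest library, above B_I3, so the order of the groups reversed between the pairs of libraries. The log2 difference was 0.76 (95% interval 0.48 to 1.03, edgeR adjusted p = 0.0285) in the 4 libraries, 0.13 (SE 0.467) in all 6, and -0.28 in B_I3 minus Blank4. Acta2 showed the same layout at a larger scale, with 806, 901 and 4514 CPM in Blank and 1122, 1178 and 3875 CPM in B_I. Its log2 difference of 0.43 in the 4 libraries was not called (edgeR adjusted p = 0.393).

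**Figure D2:**
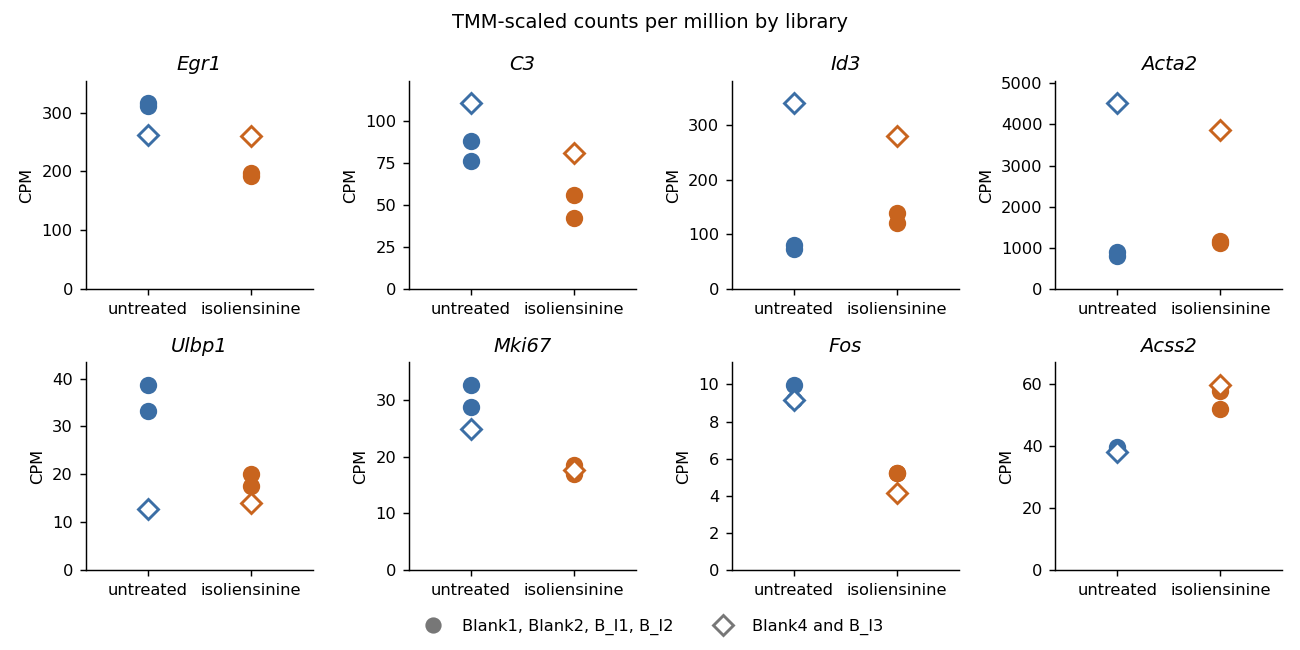
TMM-scaled CPM (vertical axes, linear, starting at 0) of 8 genes in the 3 untreated and 3 isoliensinine libraries. Each symbol is 1 library and open diamonds are Blank4 and B_I3; for Egr1 the diamonds are level at 262 and 260 CPM, for Id3 and Acta2 they lie far above the circles of both groups, and for Fos and Acss2 they lie with the circles of their own group.

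Some genes had separate groups without being called. Those in this paragraph were picked by the naming rule for separate groups and a small unadjusted p. Separate groups force the same sign in the 4 libraries and in B_I3 minus Blank4, so a like sign adds no support. The same holds for genes with separate groups named further below. The groups were separate, with every B_I library above every Blank library, for 477 genes (3.57%) and below for 498 (3.72%). Acss2 encodes the enzyme that makes acetyl-CoA from acetate in the cytosol. It was at 39.7, 38.8 and 38.2 CPM in Blank and 58.0, 51.9 and 59.8 CPM in B_I. All B_I libraries exceeded all Blank libraries. The log2 difference was 0.54 in all 6 libraries (95% interval 0.28 to 0.80, unadjusted p = 0.000348 and adjusted p = 0.917 by edgeR), 0.49 in the 4 libraries and 0.64 in B_I3 minus Blank4. Rras2, a RAS-related GTPase, was at 35.6, 35.4 and 37.3 CPM in Blank and 49.1, 50.2 and 45.6 CPM in B_I, with log2 differences of 0.42, 0.49 and 0.28 in the same order. BC005624, Acy1, which encodes aminoacylase, Ccdc51 and Cebpb filled the other places of the naming rule, at log2 0.42, 0.44, 0.72 and 0.61 in all 6 libraries. These had 0.37, 0.53, 0.54 and 0.75 in the 4 libraries, and in B_I3 minus Blank4 0.54, 0.26, 1.03 and 0.31.

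On the lower side, Fos, the partner of Jun in the AP-1 factor, was at 9.15, 9.98 and 9.17 CPM in Blank and 5.24, 5.23 and 4.17 CPM in B_I. All B_I libraries lay below all Blank libraries, and neither Blank4 nor B_I3 stood out. Its log2 difference was -0.95 in all 6 libraries (95% interval -1.45 to -0.45, unadjusted p = 0.000746 and adjusted p = 0.917 by edgeR), -0.86 in the 4 libraries and -1.05 in B_I3 minus Blank4. Igtp, an interferon-inducible GTPase, was at 14.5, 14.5 and 13.9 CPM in Blank and 8.90, 8.91 and 10.3 CPM in B_I, a log2 difference of -0.61 in all 6 libraries (not called), -0.70 in the 4 and -0.41 in B_I3 minus Blank4. Cpe, which encodes carboxypeptidase E, had -0.57 in the 4 libraries (edgeR adjusted p = 0.0579) but -0.03 in B_I3 minus Blank4. Gab1 (-0.44), an adaptor of growth factor receptors, Arl6ip5 (-0.30) and Tacc1 (-0.43) also had separate groups. In the same order, these 3 had -0.37, -0.35 and -0.41 in the 4 libraries and -0.57, -0.19 and -0.47 in B_I3 minus Blank4.

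Beyond the genes that the naming rule gives, some members of the lists are named below after their values were seen, among them Junb, Nr4a1, Shmt2, Asns, Chac1, Trib3, Pck2, Atf4, Pmvk, Dhcr7, Lama4, Col15a1, Pdgfd and 4 interferon-stimulated genes.

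Immediate early genes are transcribed within minutes of a stimulus, without new protein synthesis. Of 29 tested, 0 were called, 4 had separate groups on the lower side (13.8%, beside 3.72% of all genes) and 0 on the higher side. Those 4 were Egr1, Fos, Junb and Nr4a1. Junb, another AP-1 subunit, was at 95.5, 99.5 and 95.7 CPM in Blank and 78.9, 83.4 and 93.1 CPM in B_I. Nr4a1, an orphan nuclear receptor, was at 8.66, 6.53 and 7.44 CPM in Blank and 4.07, 5.62 and 6.23 CPM in B_I. In B_I3 minus Blank4 the log2 difference of Junb was -0.04 and that of Nr4a1 -0.24. The list as a whole had a median log2 difference of -0.05, near that of all genes.

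The integrated stress response slows translation when amino acids are short or the endoplasmic reticulum is stressed, and raises the transcription factor ATF4, which switches on amino acid synthesis, transport and tRNA charging genes. Many of these genes carry a C/EBP-ATF element in the promoter, with the letters TGATGNAA on either strand. In RefSeq promoters of build GRCm38.p6 (250 bases before to 50 after the start), 29 of the 39 listed genes were matched by symbol. The letters were found in 11 of these 29 (37.9%) and in 4.51% of 27025 gene symbols. The windows of 30 bases around the match in 4 genes of the list are shown because these had an unadjusted p under 0.05 on the higher side in the 4 libraries; capitals mark the match, and sequences read 5′ to 3′ on the gene's strand.
Asns, chr6:7693214-7693243, minus strand: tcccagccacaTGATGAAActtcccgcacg
Chac1, chr2:119351038-119351067, plus strand: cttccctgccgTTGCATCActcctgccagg
Trib3, chr2:152344028-152344057, minus strand: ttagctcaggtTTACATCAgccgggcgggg
Pck2, chr14:55540152-55540181, plus strand: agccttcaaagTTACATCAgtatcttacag
Asns carries the element as written, and the other windows hold its reverse complement. Of the 11 list genes with a match, 5 met that threshold, these 4 among them, as did 9 of the 18 without one, and the shares of both sets were not tested against each other. A match of letters does not show that a factor bound there.

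Of the 34 tested genes of the integrated stress response and amino acid list, 0 were called with all libraries or in the 4 libraries. With all libraries 7 had separate groups on the higher side (20.6%, beside 3.57% of all genes) and 0 on the lower side. The median log2 difference was 0.17, beside -0.01 for all genes. In the 4 libraries the median was 0.28, and 18 genes (52.9%, beside 4.19% of all genes) were higher at an unadjusted p under 0.05 and 0 lower. In B_I3 minus Blank4 the median was 0.02 and 19 of 34 members lay above 0, beside 6249 of 13375 genes. Members above 0 in the 4 libraries were 29 of 34, and Atf3 was among those below it. The difference between these sets of libraries was not tested.

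Single members showed that layout. Phgdh, the first enzyme of serine synthesis, was at 864, 917 and 1084 CPM in Blank and 1126, 1261 and 1103 CPM in B_I. The groups were separate, but by a small margin between Blank4 and B_I3. Its log2 difference was 0.43 in the 4 libraries (95% interval 0.23 to 0.63, edgeR adjusted p = 0.114), 0.28 in all 6 and 0.02 in B_I3 minus Blank4. Shmt2, a mitochondrial enzyme of serine and glycine exchange, was at 330, 317 and 394 CPM in Blank and 415, 472 and 384 CPM in B_I, with a log2 difference of 0.46 in the 4 libraries (edgeR adjusted p = 0.104) and -0.04 in B_I3 minus Blank4. Here B_I3 lay within the Blank range.

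Of the genes whose promoter windows are printed, Asns, asparagine synthetase, was at 581, 574 and 753 CPM in Blank and 705, 758 and 793 CPM in B_I. Chac1, which degrades glutathione, was at 101, 104 and 176 CPM in Blank and 136, 162 and 158 CPM in B_I. Trib3, a pseudokinase induced by ATF4, was at 222, 213 and 260 CPM in Blank and 268, 312 and 258 CPM in B_I. Blank4 lay within the B_I range for Asns and Trib3, and above every B_I library for Chac1. Pck2, the mitochondrial form of PEP carboxykinase, had a log2 difference of 0.16 in all 6 libraries, 0.30 in the 4 and -0.07 in B_I3 minus Blank4.

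The regulators of the response were less uniform. Atf4 itself was at 250, 239 and 271 CPM in Blank and 316, 328 and 326 CPM in B_I. All B_I libraries lay above all Blank libraries, B_I3 included. The log2 difference was 0.35 (95% interval 0.09 to 0.62, edgeR adjusted p = 0.967) in all 6, and 0.27 in B_I3 minus Blank4. Cebpb, a partner of ATF4, was at 13.0, 13.0 and 14.1 CPM in Blank and 20.0, 23.5 and 17.6 CPM in B_I, also separate. Ddit3 and Atf3, which encode the stress factors CHOP and ATF3, had log2 differences of 0.18 and -0.07 with overlapping groups. ATF4 is regulated chiefly at translation, which RNA levels do not measure.

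**Figure D3:**
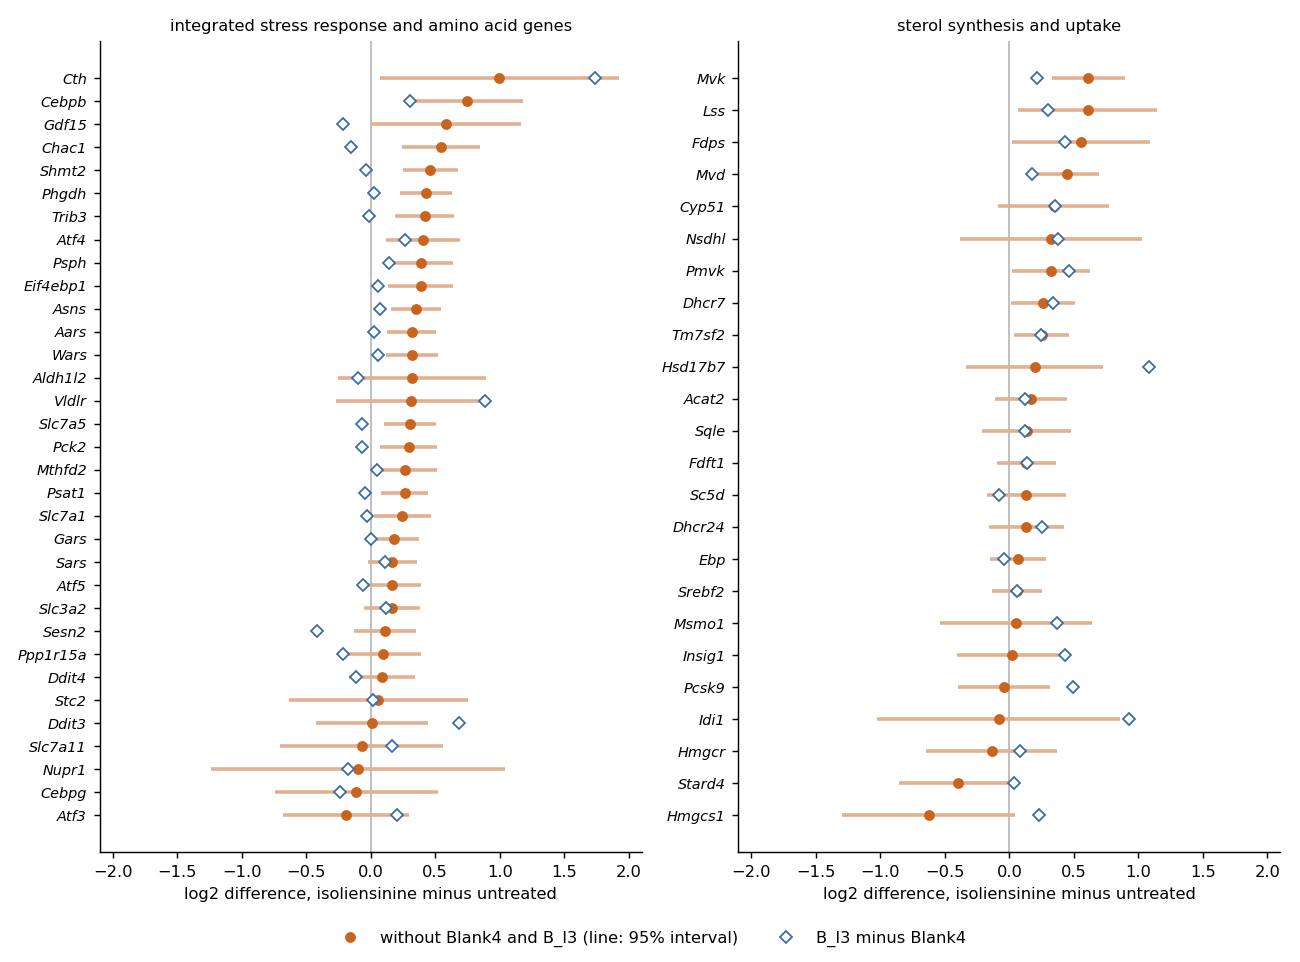
Log2 difference (horizontal axes) of tested members of the integrated stress response and amino acid list (left) and the sterol list (right), isoliensinine minus untreated. Filled circles with 95% intervals are the 4 libraries without Blank4 and B_I3, and open diamonds are B_I3 minus Blank4, a single pair with no interval. The intervals come from a fit that also held the inducer libraries. Fgf21 is left out for its wide interval, and 1 sterol gene is not shown. On the left most circles lie right of 0 and the diamonds gather at 0 (median 0.02), while on the right both lie mostly above 0.

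Sterol synthesis genes are switched on by SREBP2 when membrane cholesterol in the endoplasmic reticulum is low. Of 25 tested, 0 were called, 3 had separate groups on the higher side (12%, beside 3.57% of all genes) and 0 on the lower side. In the 4 libraries 7 (28%, beside 4.19% of all genes) were higher at an unadjusted p under 0.05 and 0 lower. Their median log2 difference was 0.15 in all 6 libraries, 0.13 in the 4 libraries and 0.25 in B_I3 minus Blank4. Members above 0 numbered 22 of 25 in all 6 libraries, 20 of 25 in the 4 and 23 of 25 in B_I3 minus Blank4. Over all genes, 6346 of 13375 were above 0 in all 6 libraries. This list leaned to the higher side in both sets of libraries, and its contrast with the amino acid list was not tested.

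The 3 genes with separate groups were Mvd, Pmvk and Dhcr7. Mvd and Pmvk act in turn in the mevalonate pathway. Mvd was at 177, 179 and 181 CPM in Blank and 219, 266 and 204 CPM in B_I (log2 0.36, 95% interval 0.13 to 0.58, edgeR adjusted p = 0.917), with 0.45 in the 4 libraries and 0.17 in B_I3 minus Blank4. Pmvk was at 41.8, 44.2 and 42.5 CPM in Blank and 50.6, 56.7 and 58.8 CPM in B_I. Dhcr7, which makes cholesterol in the last step of one branch, was at 183, 200 and 179 CPM in Blank and 217, 239 and 227 CPM in B_I, a log2 difference of 0.28 in all 6 libraries, 0.26 in the 4 and 0.34 in B_I3 minus Blank4. The classical SREBP2 targets Hmgcs1, at -0.46 (95% interval including 0), and Insig1, at 0.08, had overlapping groups. Mvk, mevalonate kinase, had 0.46 in all 6 libraries with Blank4 just above B_I1.

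Collagens and other matrix genes leaned to the lower side. Of 45 tested, 0 were called and 1 had separate groups each way, the low genes Thbs2 (lower) and Col15a1 (higher). These are 2.22% each, beside 3.72% of all genes on the lower side and 3.57% on the higher, so the lean did not show in that count. The median log2 difference was -0.18 in all 6 libraries, -0.16 in the 4 and -0.17 in B_I3 minus Blank4. In the 4 libraries 10 genes (22.2%, beside 4.64% of all genes) were lower at an unadjusted p under 0.05 and 0 higher. Members above 0 numbered 6 of 45 in all 6 libraries, 13 in the 4 and 8 in B_I3 minus Blank4. Col1a1, the main fibrillar collagen chain, was at 4878, 5438 and 6031 CPM in Blank and 4885, 4432 and 5235 CPM in B_I. Its groups overlapped, with a log2 difference of -0.17 (95% interval -0.41 to 0.07). Lama4, a laminin of basement membranes, had -0.59 in the 4 libraries (edgeR adjusted p = 0.407) and -0.22 in B_I3 minus Blank4.

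**Figure D4:**
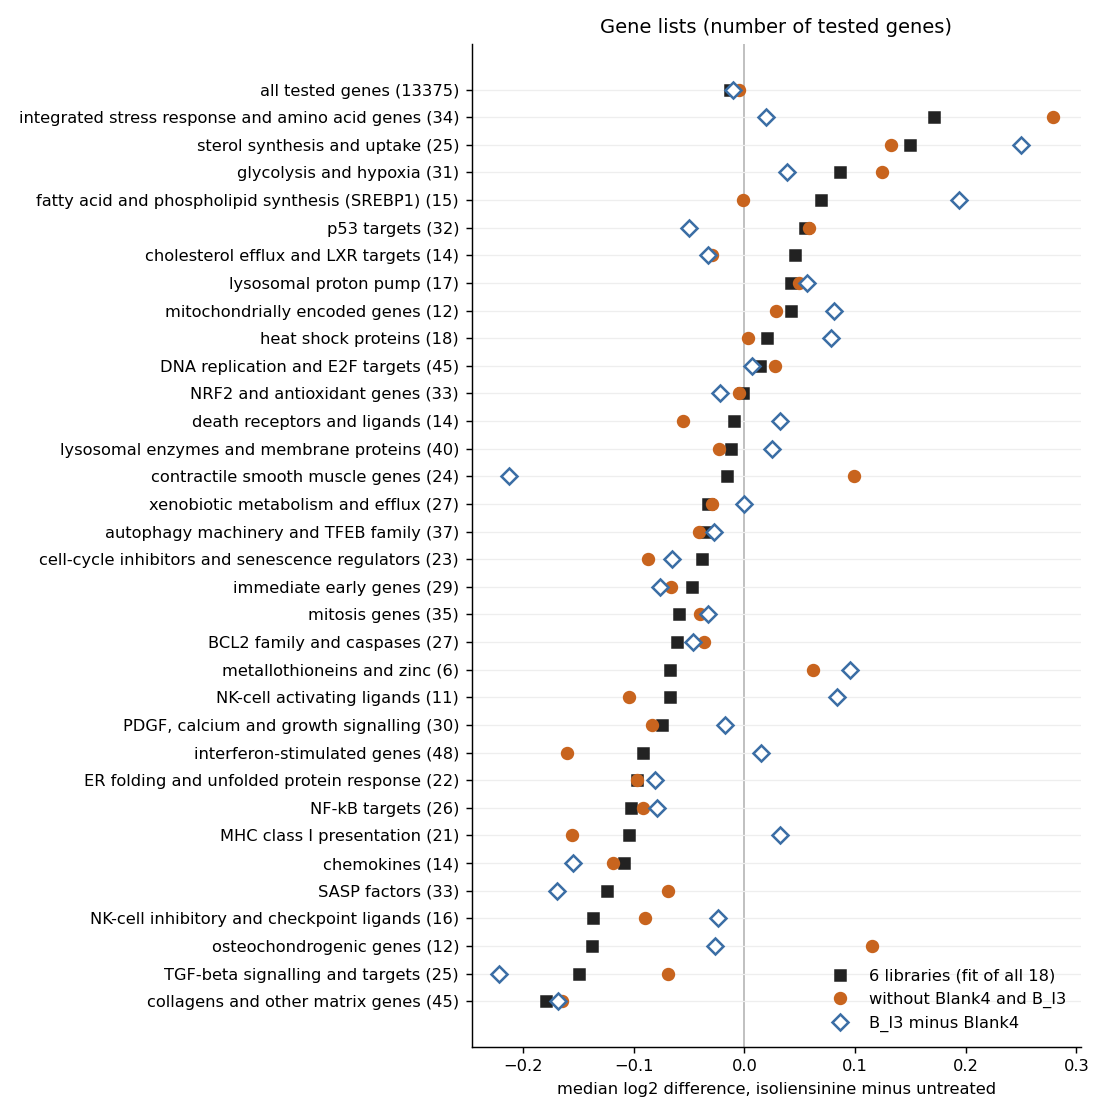
Median log2 difference, isoliensinine minus untreated (horizontal axis), of 33 gene lists and of all tested genes, with the number of tested genes in brackets. Black squares are all 6 libraries, orange circles the 4 libraries without Blank4 and B_I3, and open diamonds B_I3 minus Blank4. The 3 marks lie on the same side of 0 for sterol genes (0.15, 0.13 and 0.25) and for matrix genes (-0.18, -0.16 and -0.17). Other lists have this layout too, among them secreted senescence factors (-0.12, -0.07 and -0.17) and TGF-beta genes (-0.15, -0.07 and -0.22). The marks spread apart for contractile genes.

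Among genes that bear on NK recognition, Ulbp1, an NKG2D ligand, was at 33.1, 38.7 and 12.8 CPM in Blank and 20.1, 17.6 and 14.1 CPM in B_I. Blank1 and Blank2 were the high libraries, and Blank4 was the lowest of all. The log2 difference was -0.71 in all 6 (SE 0.269, edgeR adjusted p = 0.967), -0.92 in the 4 (edgeR adjusted p = 0.0775) and 0.14 in B_I3 minus Blank4. Of 11 tested genes on the list of activating ligands, 0 were called, and 1 had separate groups, on the lower side (9.09%, beside 3.72% of all genes). It was Pdgfd, which is nearly silent at 0 to 0.601 CPM. Whether each listed gene acts as an activating ligand for mouse NK cells was not tested, so this count describes the list only. Pvr, a ligand of DNAM-1, had a log2 difference of -0.09 (95% interval within 2-fold).

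MHC class I genes leaned lower in the 4 libraries. Of 21 tested, 0 were called, the median log2 difference was -0.10 in all 6 libraries and -0.16 in the 4, and 5 genes (23.8%, beside 4.64% of all genes) were lower at an unadjusted p under 0.05 in the 4 with 0 higher. In B_I3 minus Blank4 the median was 0.03. Tapbp, the tapasin gene, was at 552, 549 and 458 CPM in Blank and 361, 427 and 513 CPM in B_I. B_I3 lay above Blank4, against the order of the other libraries. B2m, the shared light chain, had a log2 difference of -0.10 (95% interval -0.33 to 0.12), and H2-K1 had -0.06. Reads of H2 and Raet1 genes may be split between close copies. Of 16 inhibitory and checkpoint ligands 0 were called, and Cd274, which encodes PD-L1, was low at 0.257 to 1.11 CPM.

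Interferon-stimulated genes, 48 tested, had 5 with separate groups on the lower side (10.4%, beside 3.72% of all genes) and 1 on the higher (2.08%, beside 3.57%), with 0 called. The 5 were Igtp and, outside the naming rule, Eif2ak2, Xaf1, Oasl2 and Zbp1. The higher one was Oas1g, a nearly silent gene with close copies that may share its reads, at 0.125, 0.185 and 0.150 CPM in Blank and 0.582, 1.03 and 0.513 CPM in B_I. Its log2 difference was 2.15 in all 6 libraries (unadjusted p = 0.00433 and adjusted p = 0.917 by edgeR), 2.33 in the 4 and 0.64 in B_I3 minus Blank4. The last value uses log2(CPM + 0.5). At so low a level that offset shrinks the difference, so it cannot be compared in size with the other values. Eif2ak2, the double-stranded RNA sensor kinase, was at 6.41, 13.0 and 6.54 CPM in Blank and 5.70, 5.29 and 4.43 CPM in B_I. The list's median log2 difference was -0.09 in all 6 libraries, -0.16 in the 4 and 0.01 in B_I3 minus Blank4. Isg15 had 0.16 with overlapping groups. Of 33 tested secreted factors of the senescence-associated secretory phenotype, 0 were called. Their median log2 difference was -0.12 in all 6 libraries, -0.07 in the 4 and -0.17 in B_I3 minus Blank4. On the lower side 3 had separate groups (9.09%, beside 3.72% of all genes) and on the higher side 0 (beside 3.57%). In the 4 libraries 6 (18.2%, beside 4.64% of all genes) were lower at an unadjusted p under 0.05 and 2 (6.06%, beside 4.19%) higher. Il6 was at or near 0 in all 6 libraries and was not tested, and Ccl2 (a log2 difference of -0.11) and Ccl5 (6.66 to 10.7 CPM) had overlapping groups.

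Markers of the cell cycle and senescence gave no call. Mki67, a proliferation marker, was at 28.8, 32.6 and 24.8 CPM in Blank and 18.5, 16.9 and 17.7 CPM in B_I. The groups were separate and neither B_I3 nor Blank4 set the order. The log2 difference was -0.70 (95% interval -1.17 to -0.23, unadjusted p = 0.00508 and adjusted p = 0.917 by edgeR), -0.79 in the 4 libraries and -0.48 in B_I3 minus Blank4. The 35 mitosis genes as a list had a median of -0.06 in all 6 libraries, -0.04 in the 4 and -0.03 in B_I3 minus Blank4. The 45 replication genes had 0.01, 0.03 and 0.01 in the same order. Cdkn1a, which encodes p21, was at 110, 97.2 and 90.5 CPM in Blank and 128, 128 and 94.8 CPM in B_I, overlapping (log2 0.23, 95% interval -0.02 to 0.49), with 0.31 in the 4 libraries and 0.07 in B_I3 minus Blank4. Cdkn2a had -0.11, Lmnb1, whose loss marks senescence, -0.22, and Glb1, the source of senescence-associated galactosidase activity, -0.13, all with overlapping groups.

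Lysosomal, autophagy and oxidant-defence genes were examined because alkaloids with basic nitrogens can gather in lysosomes. Of 40 lysosomal enzymes and membrane proteins 0 were called, with a median log2 difference of -0.01 in all 6 libraries, -0.02 in the 4 and 0.02 in B_I3 minus Blank4. Of the 40, 6 in the 4 libraries (15%, beside 4.64% of all genes) were lower at an unadjusted p under 0.05 and 2 (5%, beside 4.19%) higher. With all libraries, 3 (7.5%, beside 3.57% of all genes) had separate groups on the higher side and 2 (5%, beside 3.72%) on the lower. Mcoln1, a member on the higher side with overlapping groups, had a log2 difference of 0.27 in all 6 libraries, in the 4 and in B_I3 minus Blank4. The 17 proton pump subunits had a median of 0.04. Psap, the saposin precursor, was at 1210, 1196 and 1110 CPM in Blank and 899, 890 and 1071 CPM in B_I. The groups were separate, again by little between Blank4 and B_I3, and the log2 difference was -0.30 in all 6 libraries, -0.42 in the 4 (edgeR adjusted p = 0.0775) and -0.05 in B_I3 minus Blank4. Of 37 autophagy genes 0 were called, with a median of -0.04 in all 6 libraries, and 2 (5.41%, beside 3.72% of all genes) had separate groups on the lower side and 1 (2.7%, beside 3.57%) on the higher. Atg12, which is conjugated to ATG5 as autophagosomes form, was at 18.2, 14.9 and 13.1 CPM in Blank and 10.9, 10.7 and 6.80 CPM in B_I. All B_I libraries lay below all Blank libraries, with B_I3 the lowest. Its log2 difference was -0.71 in all 6 libraries (unadjusted p = 0.00177 and adjusted p = 0.917 by edgeR), -0.61 in the 4 and -0.90 in B_I3 minus Blank4. Gpnmb, a gene that often rises with lysosomal stress, had 0.13 and Sqstm1, the autophagy receptor p62, 0.12, both overlapping. Hmox1, heme oxygenase, was at 126, 137 and 135 CPM in Blank and 163, 177 and 139 CPM in B_I, a log2 difference of 0.27 in all 6 libraries, 0.38 in the 4 and 0.04 in B_I3 minus Blank4. The 33 NRF2 and antioxidant genes had a median of 0.00, with 4 (12.1%, beside 3.57% of all genes) separate on the higher side.

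The difference with isoliensinine was set beside that in inducer-treated cells, which share no library with this comparison. D_I against Dox and H_I against H2O2 gave 0 calls each by edgeR (556 and 915 genes at an unadjusted p under 0.05). The test of the difference between the effects in untreated and doxorubicin-treated cells called 0 of 13375 genes (percent called 0; smallest adjusted p 0.0625, 522 genes unadjusted, 3 called by DESeq2). That for peroxide also called 0 (percent called 0; smallest adjusted p 0.648, 813 unadjusted, 2 called by DESeq2). Without Blank4 and B_I3 the doxorubicin contrast called 8 genes (0.0582%) and the peroxide contrast 0 (percent called 0; 1548 unadjusted).

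Egr1 had the smallest adjusted p of that contrast. Its log2 difference was -0.45 (SE 0.119) in untreated cells, 0.57 (SE 0.119) in doxorubicin-treated cells and -0.36 (SE 0.119) in peroxide-treated cells. Between the first pair the effect differed by -1.02 with all libraries (edgeR adjusted p = 0.0625) and by -1.25 without Blank4 and B_I3 (edgeR adjusted p = 1.82e-05). The other genes called without these libraries were Acta2 (1.42), Fabp5 (1.25), a fatty acid carrier, Pycr1 (1.02), which makes proline, Id3 (0.91), Tpm1 (0.63), a tropomyosin, Psap (-0.68) and Tapbp (-0.81). Fabp5, Pycr1 and Tpm1 lie outside the naming rule and were named after their values were seen. The values in brackets are differences between effects, not effects of isoliensinine alone. Tpm1 had a log2 difference of 0.12 in the 4 untreated and isoliensinine libraries and -0.51 in D_I against Dox. In the same order, Acta2 had 0.43 and -0.98, Id3 0.76 and -0.15, Psap -0.42 and 0.26, and Tapbp -0.48 and 0.33. With all libraries the contrast of Acta2 was 0.97 (unadjusted p = 0.264 by edgeR). The median of the amino acid list was 0.08 in doxorubicin-treated and -0.07 in peroxide-treated cells, and that of the sterol list was 0.05 and 0.14.

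**Figure D5:**
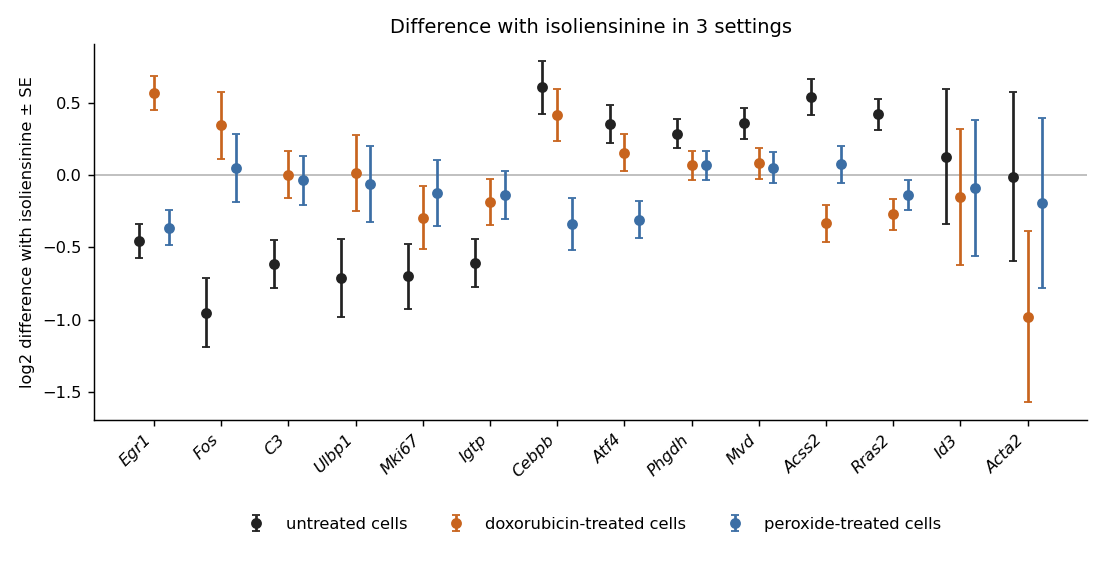
Log2 difference with isoliensinine (vertical axis, points with SE bars from the fit of all 18 libraries) of 14 genes in untreated, doxorubicin-treated and peroxide-treated cells. Egr1 lies at -0.45 in untreated and 0.57 in doxorubicin-treated cells; the wide bars of Id3 and Acta2 come from fits that include Blank4 and B_I3.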

How the data were processed

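Poly-A RNA of 18 MOVAS libraries was sequenced; fastp 0.22.0, HISAT2 2.1.0 and HTSeq 0.9.1 are named in the submitters' processing notes. For the genome build and the use of strand, nothing is stated in those notes or the labels, so a gene and its antisense partner cannot be told apart. The deposited table, per the file headers, holds whole-number read counts per gene and FPKM values for each library; 100% of the FPKM values equalled the value computed from count, length and total (relative tolerance 1e-06), so the counts were tested.

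Counts were tested in R 4.3.3 with edgeR 4.0.16 (quasi-likelihood test, TMM scaling, filterByExpr, a mean for each of the 6 groups of 3 libraries, Benjamini-Hochberg adjustment over 13375 genes, threshold 0.05). CPM are TMM-scaled, log2 differences are B_I minus Blank, and B_I3 minus Blank4 uses log2(CPM + 0.5). Total counts were 15740815 to 17955971, and FPKM were used only in limma 3.58.1 as an alternative, with DESeq2 1.42.0 as another. The script was tested on simulated data. The comparison, the gene lists and the libraries to leave out were chosen with earlier results of these data known. Genes were named by a rule: called genes with separate groups and at least 5 FPKM, up to 6 places a direction filled by the smallest unadjusted p, genes given by name, up to 2 members of each list by smallest p, and genes called without Blank4 and B_I3. Replicates 1 and 2 share only a number. 1 gene of the sterol list that the rule gives by name, and some promoter windows, are not reported here; the list's counts include that gene.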

Additional observations from a re-analysis of the deposited data

How the results depend on the processing

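With all libraries, 0 genes were called by edgeR for isoliensinine alone (640 at an unadjusted p under 0.05). The count was 1 with DESeq2, 1 with no filter on low counts (Zfp607b in both), 1 with a covariate shared by Blank4 and B_I3 (C3, -0.64), and 3 without Blank4 and B_I3. Leaving out each replicate in turn gave 0 to 4, the 4 being without Blank replicate 4 (Osmr, Sema5a, Ulbp1 and Prmt7, of which Osmr, Sema5a and Prmt7 were named after their values were seen). With the replicate number as a block, the count was 0 in 18 libraries and 46 in the 6 libraries alone. There numbers 3 and 4 occur once each, so that B_I3 and Blank4 add nothing to the difference. That fit of the 6 libraries leaves almost no residual degrees of freedom to estimate the spread, and its blocks pair libraries that share only a number. For the contrast with doxorubicin-treated cells, 0 became 3 with DESeq2, 3 with the block in 18 libraries and 8 without Blank4 and B_I3, and leaving out each replicate gave 0 to 4, with 4 without Blank replicate 4 and 1 without B_I replicate 3. For peroxide, 0 became 2 with DESeq2. Under the stricter thresholds, other scalings, the filter of 5 CPM, the 6 libraries alone and limma on FPKM, the count for isoliensinine alone was 0. Of 111 named genes, 94 had the same sign under every alternative that gave a value, and 35 of 41 list medians kept their sign without Blank4 and B_I3. Many of the named genes were picked for a small p in these data, and the alternatives refit the same libraries. A steady sign was therefore partly fixed in advance and adds no separate support. With 3 libraries a group the median half-width of 0.48 (log2) limits what could be detected.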

Other observations

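Of 26 NF-kB targets, 0 were called and 3 (11.5%, beside 3.72% of all genes) had separate groups on the lower side, the inhibitors Nfkbia and Nfkbie and the adaptor Traf1. The list's median log2 difference was -0.10 in all 6 libraries, -0.09 in the 4 libraries and -0.08 in B_I3 minus Blank4. Of 32 p53 targets, 0 were called, and the median was 0.06 in all 6 libraries and in the 4 and -0.05 in B_I3 minus Blank4. The 2 with separate groups (6.25%, beside 3.72% of all genes), both lower, were Mdm2 and Ppm1d. The 31 glycolysis and hypoxia genes had a median of 0.09 in all 6 libraries, 0.12 in the 4 and 0.04 in B_I3 minus Blank4, with 0 called. Separate groups occurred in 0 either way, beside 3.57% of all genes on the higher side and 3.72% on the lower. Of the 31, 5 in the 4 libraries (16.1%, beside 4.19% of all genes) were higher at an unadjusted p under 0.05 and 0 lower. The 22 genes of protein folding in the endoplasmic reticulum had a median of -0.10 in all 6 libraries and in the 4 and -0.08 in B_I3 minus Blank4, and Herpud1 was the 1 with separate groups (4.55%, beside 3.57% of all genes), on the higher side. Genes named in this paragraph were chosen as the members with separate groups, after their values were seen.

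All 16 colon epithelium markers had a log2 difference above 0 in all 6 libraries and in the 4 libraries, and 11 of 16 did so in B_I3 minus Blank4, with 0 called. Their medians were 0.27, 0.23 and 0.26. The summed level was highest in B_I1, at 324 CPM, and was 130 CPM in B_I2. Hepatocyte markers, led by Alb, were present too, with 15 of 17 at a mean of at least 1 CPM. Their summed level ran from 109 to 171 CPM in Blank and from 114 to 174 CPM in B_I. Their median log2 difference was -0.14 in all 6 libraries, 0.01 in the 4 and -0.54 in B_I3 minus Blank4, with 0 called. The part of these colon and hepatocyte signals in the other results was not tested.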
